A study of Mus musculus with 8 samples.

Results

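The constitutive proteasome genes of the banded mouse ventricle are described here over 8 arrays. Members were all genes whose symbol is Psma, Psmb, Psmc or Psmd followed by a number, on probe sets annotated to 1 gene, without the interferon-inducible subunits Psmb8, Psmb9 and Psmb10. This gave 37 of the 18193 gene symbols on the array, read by 76 probe sets, and a gene with several was read from its brightest one on average. Of these 37, 35 lay above a log2 value of 5 in at least 4 arrays and were measured. Psma8 and Psmb11, known as the alpha subunit of the testis and the beta subunit of the thymus, stayed between 2.40 and 2.59 in every array and were not measured. Psmc3ip matches the naming pattern but encodes a meiotic recombination factor that was named for binding Psmc3, and it is described apart. That left 34 genes, 14 of the core particle and 20 of the regulatory particle, the latter with its assembly chaperones.

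The RNA came from heart ventricles of male FVB mice aged 8 to 12 weeks, 1 week after banding of the ascending aorta, which makes the left ventricle pump against a higher pressure. Wild-type mice gave 4 arrays, WT_1 to WT_4. Mice carrying a CHF1/Hey2 transgene under the mlc2v promoter, which is active in heart muscle cells, gave the other 4, TG_1 to TG_4. All these hearts were banded, and unbanded hearts were not analysed here. The comparison therefore asks how CHF1/Hey2, a transcriptional repressor, bears on ventricular gene expression under load and not what banding does. Whole ventricle also holds cells in which this promoter is not active, and fewer cells of a type and less RNA per cell cannot be told apart in it.

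The proteasome degrades proteins that carry chains of ubiquitin. Its core is a barrel of stacked rings, with alpha subunits that gate the entrance and beta subunits, 3 of them catalytic, that cut the protein chain inside. The regulatory particle that caps the barrel recognises ubiquitin, removes it, and unfolds and feeds in the substrate with a ring of ATPases. The subunits are made in matched amounts, and NRF1, the product of Nfe2l1, is known to raise them together through antioxidant response elements when proteasome activity falls. In the heart the proteasome turns over sarcomere and signalling proteins, and its capacity has been studied in pressure overload.

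Before any group is compared, the arrays themselves need a word. Pearson's r across the 9607 genes tested, which are no independent replicates, was 0.788 to 0.840 for TG_2 with any other array and 0.977 to 0.992 among the 6 arrays apart from TG_2 and TG_3. A distance of over 2-fold from the median of the remaining arrays was found for 3572 genes in TG_2 (37.2%) and for 891 in TG_3 (9.27%). Hey2 was 5.87, 5.70, 6.26 and 6.02 in TG_1 to TG_4 and 5.89, 5.96, 5.68 and 6.76 in WT_1 to WT_4, a difference of -0.11 (exact two-sided permutation p = 0.771), or 0.12 without WT_4. It did not set the arrays labelled transgenic apart, and the labels do not say if its probe set can read the transgene. All 6 heart muscle markers checked were measured, with a summed linear level of 168900 to 225600 in the arrays labelled transgenic and 206300 to 219100 in wild type, lowest in TG_2. Singly, Myh6, Tnnt2, Ryr2 and Pln were lowest in TG_2, Actn2 was highest there, at 14.44, and Tnni3 was neither. The 3′ probe set of the Gapdh control lay between 0.11 and 0.28 below its 5′ probe set in all 8 arrays on the log2 scale, with TG_2 at 0.27 below. For the beta-actin control the 3′ excess was 0.616 in TG_2 and between 0.784 and 1.21 in the others.

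Antioxidant response elements were looked for in the promoters because they are the sequence by which proteasome genes are known to be raised together. The element's core, TGACNNNGC read on both strands, was searched in the RefSeq promoters of build GRCm38.p6, which run from 250 bases before to 50 after a gene's start. Of the 34 genes 28 had a promoter in that table. The core was found in 5 of them, and 16.7% of their 30 promoters held it, against 12.4% of all 32851 promoters of the same length. The 60 bases around each match are shown with the matching letters in capitals, since these 5 genes went different ways in TG_2.
Psmb5: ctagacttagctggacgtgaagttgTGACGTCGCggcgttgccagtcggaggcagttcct
Psmb6: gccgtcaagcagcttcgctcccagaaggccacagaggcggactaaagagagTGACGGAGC
Psmd9: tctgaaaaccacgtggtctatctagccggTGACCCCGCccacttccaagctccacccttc
Psmc6: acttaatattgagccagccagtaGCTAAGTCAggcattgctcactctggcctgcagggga
Psmd12: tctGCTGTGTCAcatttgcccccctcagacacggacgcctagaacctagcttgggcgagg
They lie at chr14:54618008-54618067 on the minus strand for Psmb5, and on the plus strand at chr11:70525297-70525356 for Psmb6, chr5:123228130-123228189 for Psmd9, chr14:45329574-45329633 for Psmc6 and chr11:107479278-107479337 for Psmd12. The match begins 47, 9 and 31 bases before the start in Psmb5, Psmb6 and Psmd9, on the strand of the gene, and 227 and 247 bases before it in Psmc6 and Psmd12, on the opposite strand. In TG_2 the first 3 genes lay 0.44, 0.57 and 1.30 above the median of the other 7 on the log2 scale, and Psmc6 and Psmd12 lay at -2.53 and -0.69 from it. The members as a whole also went both ways, with TG_2 the highest array for 22 of the 34 genes and the lowest for 8. A link between the matches and TG_2 was not tested. The CCAAT box, the binding sequence of NF-Y, was in 36.7% of the 30 promoters and in 37.4% of all. These are matches of letters and not sites shown to be bound.

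No proteasome gene passed the comparison of arrays labelled transgenic with wild type. With limma and Benjamini-Hochberg adjustment over all 9607 genes, 0 of the 34 genes were higher and 0 lower, and the same held for the whole array (0%), with adjusted p of 0.813 or more. An unadjusted limma p below 0.05 was reached by 0 of the 34 and by 1.59% of all genes, or by 0 of the 34 and 2.41% without TG_2. In the probe sets used the groups overlapped for each of the 34, whereas they did not overlap for 2.48% of all genes. Means were higher in the arrays labelled transgenic for 25 of the 34, with a median difference of 0.12 on the log2 scale. The same was true of 57.0% of all genes, with a median of 0.06. The 95% confidence interval of a single member's difference reached 0.44 to either side (median over the 34), against 0.61 over all genes. That interval is not adjusted for the number of genes tested. Changes smaller than about that size could not be told from 0 here, and larger ones could also fail to pass.

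**Figure D1:**
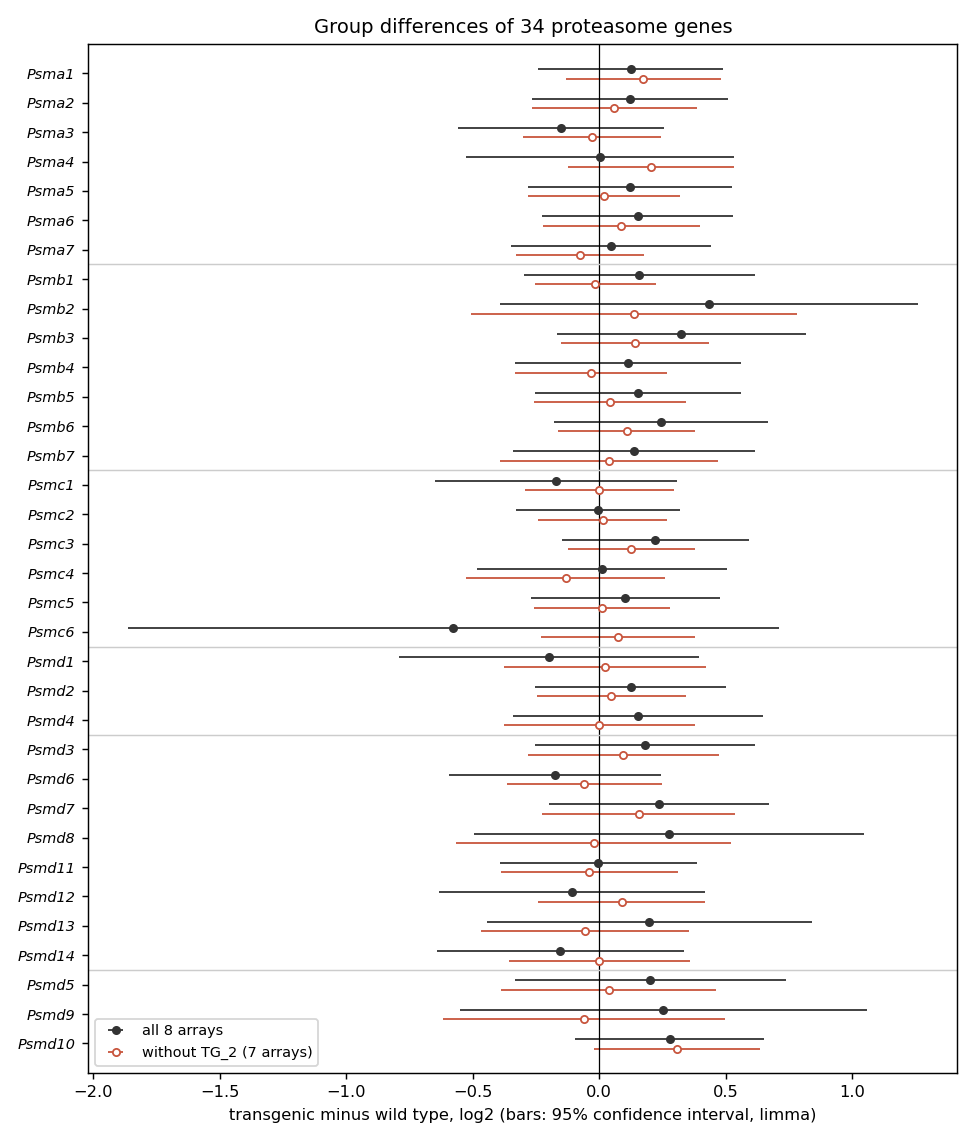
Difference of the group means, transgenic minus wild type, on the log2 scale for the 34 measured core and regulatory genes, with the limma 95% confidence interval, over all 8 arrays (filled) and without TG_2 (open). All intervals include 0, and the widest, that of Psmc6, runs from -1.86 to 0.71 with TG_2 and from -0.23 to 0.38 without it.

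Core and regulatory genes were set side by side. Of the 14 core genes 13 had a higher mean in the arrays labelled transgenic, with a median difference of 0.13, and of the 20 regulatory genes 12 did, with a median of 0.11. These counts moved with TG_2. Without that array 10 of 14 core and 13 of 20 regulatory genes were higher, where 55.9% of all genes were, with medians of 0.05 and 0.01 against 0.03 over all genes. Without both TG_2 and TG_3 the numbers were 8 of 14 and 15 of 20, where 65.3% of all genes were higher, with medians of 0.03 and 0.11. Without TG_3 alone 12 core and 13 regulatory genes were higher, where 60.6% of all genes were, with medians of 0.14 and 0.16.

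The single arrays differed more than the groups did. In TG_2 the core and regulatory medians lay 0.43 and 0.37 above the wild-type mean, and the median of all genes lay 0.29 above it. In TG_3 the 2 particles parted, with the core median at 0.15 and the regulatory median at -0.11, and 11 of 14 core but 6 of 20 regulatory genes lay above their wild-type mean, where 48.2% of all genes did. Their parts, described below, were not uniform. The TG_3 median was 0.08 for the alpha ring and 0.21 for the beta ring. It was 0.01 for the ATPases, -0.22 for the other base genes, -0.12 for the lid and -0.13 for the assembly chaperones. The 6 fibroblast markers summed to a linear level of 24570 in TG_3 and to at least 65990 in the other arrays. Col1a1, Col1a2 and Col3a1 were far lower in TG_3, whereas Dcn was 13.27 in TG_3 and 13.33 in TG_2, and Lum was lower in TG_2 (11.33) than in TG_3 (11.70). The part of the fibroblast markers in this was not tested. TG_4 showed the opposite order, at 0.03 for core and 0.16 for regulatory genes, with 11 of 14 core and 18 of 20 regulatory genes above the wild-type mean, where 65.3% of all genes were. The core count was thus that of TG_3. TG_1 was at 0.01 and 0.00. The same kind of spread stood among the wild-type mice, where WT_1 had medians of 0.18 and 0.20 and WT_4 of -0.06 and -0.10. The difference between core and regulatory medians was 0.26 in TG_3, -0.13 in TG_4 and between -0.08 and 0.10 in the other 6 arrays. Each wild-type array is part of the wild-type mean, which draws its own distances towards 0. Distances of the 2 groups are therefore not on an equal footing.

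**Figure D2:**
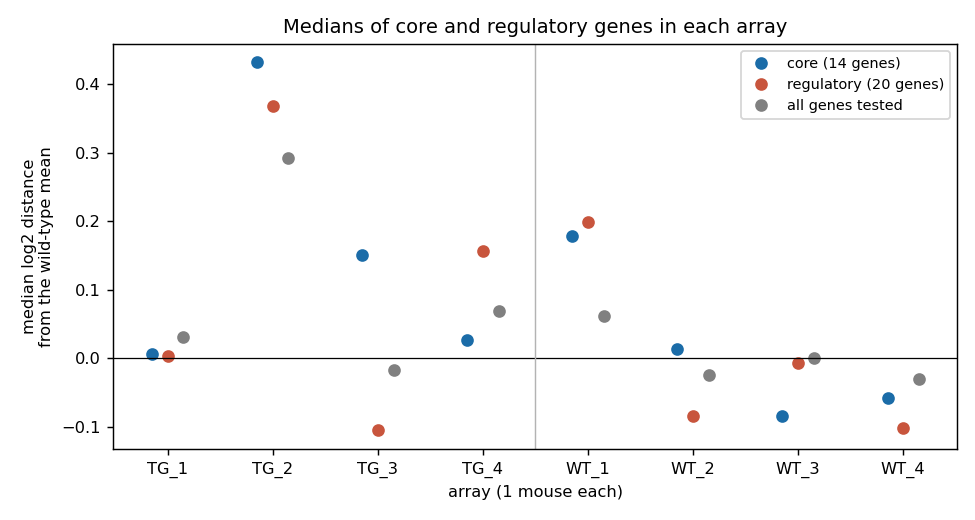
Median log2 distance from the wild-type mean in each of the 8 arrays, 1 mouse each, for 14 core genes, 20 regulatory genes and all 9607 genes tested. TG_2 is the highest for all 3 sets, WT_1 is the highest wild-type array, and the core and regulatory medians are farthest apart in TG_3, at 0.15 and -0.11. The wild-type arrays are part of the wild-type mean, which draws their distances towards 0.

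Genes of both particles tended to be high in the same wild-type mouse. WT_1 held the highest of the 4 wild-type values for 27 of the 34 genes, 11 core and 16 regulatory, whereas this was so for 38.4% of all genes and for 45.1% of the 2254 genes with a mean above 10. Of the 29 members with a mean above 10, 24 were highest in WT_1. These genes share that 1 library. The summed heart muscle markers were 219100 in WT_1 and 206300 to 213200 in the other wild-type arrays, and the summed fibroblast markers were 86250 against 70760 to 82970. Single markers were split. Of the wild-type arrays WT_1 was highest for Actn2 and Ryr2, lowest for Tnni3 (14.73) and neither for Myh6, Tnnt2 and Pln. It was highest for Col1a2, Dcn and Lum, whereas WT_3 was highest for Col1a1, Col3a1 and Pdgfra. The part of these markers in the WT_1 values was not tested. The step was small. The median member lay 0.19 above the wild-type mean in WT_1, and the median SD of a member over the 4 wild-type mice was 0.17, against 0.19 for all genes.

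The alpha ring, whose subunits form the gate of the core, stayed within narrow limits. Of the 7 measured alpha genes 6 had a higher mean in the arrays labelled transgenic and 0 passed, with differences between -0.15 and 0.15 and limma adjusted p between 0.813 and 0.997. Without TG_2 the differences lay between -0.08 and 0.20, against -0.03 and 0.14 in the beta ring. With all 8 arrays Psma6 had the smallest p and the largest difference of the ring. Its values were 12.08, 12.52, 12.36 and 12.35 in TG_1 to TG_4 and 12.25, 11.94, 12.24 and 12.26 in WT_1 to WT_4. TG_1 lay below 3 of the wild-type arrays, so the groups overlapped, and the means of 12.33 ± 0.18 and 12.17 ± 0.15 (SD, n = 4 each) differed by 0.15 (SE 0.166; 0.09 without TG_2; exact two-sided permutation p = 0.286). The probe set used for Psma6 carries the suffix _x_at, which marks probes that can bind other transcripts. Psma3, the only alpha gene with a lower mean, was at 12.11 in TG_2 and at 12.52 or more in the other 7 arrays, and its difference was -0.15, or -0.03 without TG_2. Psma4 was likewise lowest in TG_2, at 10.62, while Psma2, Psma5, Psma6 and Psma7 were highest there. The difference of Psma4 was 0.003, or 0.20 without TG_2, the largest of the core without that array. Psma1 was highest in TG_3, at 12.29, and its difference was 0.12, or 0.17 without TG_2.

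All 7 beta genes were highest in TG_2, the array that was highest for 46.8% of all genes. Their differences between groups were between 0.11 and 0.43 with all 8 arrays and between -0.03 and 0.14 without TG_2, and 0 of the 7 passed (limma adjusted p between 0.813 and 0.846). This ring holds the peptidases, of which Psmb5 has the chymotrypsin-like, Psmb6 the caspase-like and Psmb7 the trypsin-like activity.

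Psmb5 was 11.57, 12.02, 11.61 and 11.56 in TG_1 to TG_4 and 11.75, 11.60, 11.49 and 11.30 in WT_1 to WT_4. Apart from TG_2, its values in the arrays labelled transgenic lay inside the wild-type range. The means of 11.69 ± 0.22 and 11.54 ± 0.19 (SD, n = 4 each) differed by 0.15 (95% confidence interval -0.26 to 0.56; exact two-sided permutation p = 0.371), and by 0.04 without TG_2. Psmb6 was 11.29, 11.94, 11.53 and 11.37 against 11.39, 11.38, 11.21 and 11.18. Here TG_3 also lay above every wild-type array, and TG_1 and TG_4 did not. The difference of 0.24 (95% confidence interval -0.18 to 0.67, exact permutation p = 0.171) became 0.11 without TG_2 and 0.04 without TG_2 and TG_3. Psmb7 was 12.03, 12.40, 12.21 and 11.78 against 12.34, 12.03, 11.68 and 11.81. It was nearly as high in WT_1 as in TG_2, and the difference was 0.14 (95% confidence interval -0.34 to 0.61; exact permutation p = 0.486; 0.04 without TG_2 and -0.06 without TG_2 and TG_3).

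Among the structural beta genes Psmb3 and Psmb2 led. Psmb3 had the smallest p of the core, with 11.60, 12.34, 11.67 and 11.54 in TG_1 to TG_4 and 11.69, 11.41, 11.48 and 11.28 in WT_1 to WT_4. Only WT_1 kept the groups from parting, and the means lay 0.32 apart (SE 0.216; exact permutation p = 0.143), or 0.14 without TG_2. Psmb2 was the most variable member of the core. It was 8.62, 9.71, 8.94 and 8.03 against 8.71, 8.76, 8.05 and 8.05, so that both groups held low and high mice. Its wild-type SD of 0.40 was the widest of the 34 genes, and its difference of 0.43 (95% confidence interval -0.39 to 1.26) became 0.14 without TG_2 and -0.07 without TG_2 and TG_3. Psmb1 and Psmb4 differed by 0.16 and 0.11, or by -0.02 and -0.03 without TG_2.

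**Figure D3:**
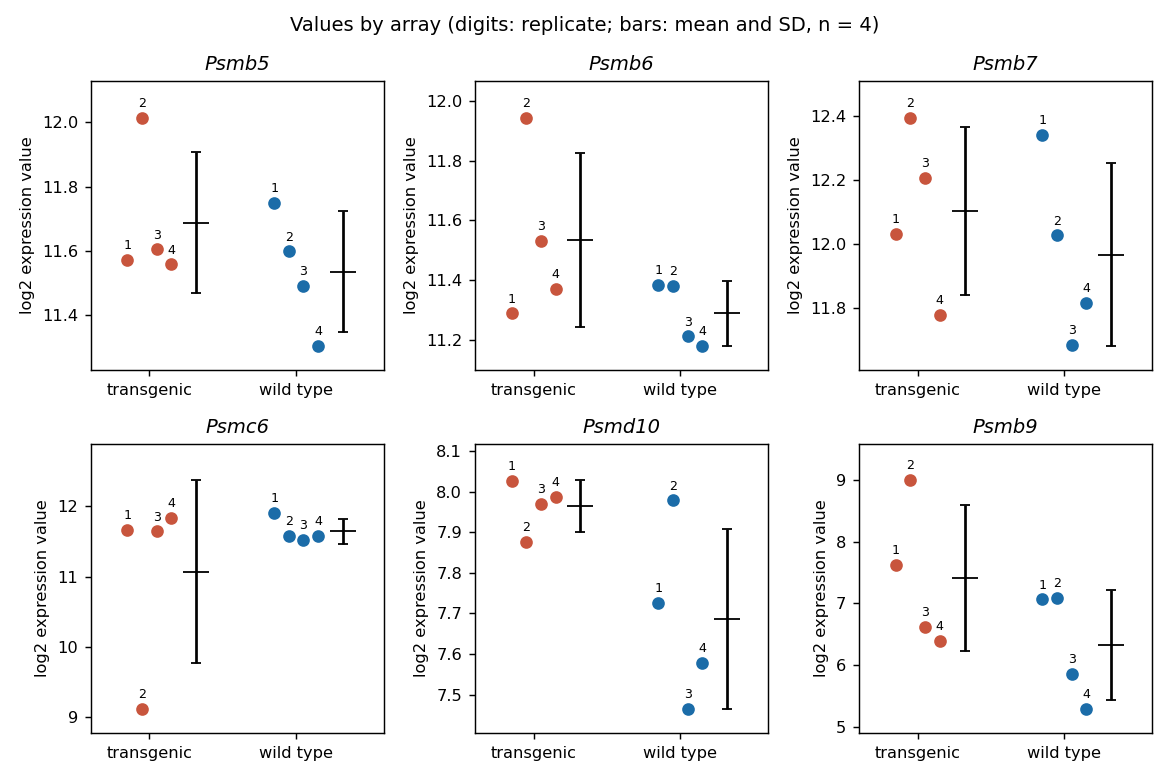
Log2 expression values of 6 genes in each array, 1 point per mouse with its replicate number, beside the mean and SD of each group (n = 4); each panel has its own axis, which does not start at 0. TG_2 is highest for Psmb5, Psmb6, Psmb7 and Psmb9 and lowest for Psmc6 at 9.12, and Psmd10 spans 7.88 to 8.03 in the arrays labelled transgenic and 7.46 to 7.98 in wild type.

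The ATPases, which unfold the substrate, split 3 to 3. Psmc3, Psmc4 and Psmc5 had higher means and Psmc1, Psmc2 and Psmc6 lower ones, and 0 of 6 passed (limma adjusted p between 0.813 and 0.993). Psmc3 had the smallest p of the ring. It was 11.58, 12.03, 11.62 and 11.73 in TG_1 to TG_4 and 11.64, 11.50, 11.54 and 11.40 in WT_1 to WT_4. WT_1 lay above TG_1 and TG_3, the other wild-type arrays lay below every array labelled transgenic, and the difference was 0.22 (SE 0.162; exact permutation p = 0.0857; 0.13 without TG_2).

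Psmc6 showed the widest departure of any member. Its values were 11.67, 9.12, 11.64 and 11.84 in TG_1 to TG_4 and 11.90, 11.58, 11.52 and 11.58 in WT_1 to WT_4. TG_2 alone lay apart, at 0.174 of the median of the other 7 arrays, and the other 3 arrays labelled transgenic lay inside the wild-type range. The group difference of -0.58 (95% confidence interval -1.86 to 0.71; exact permutation p = 0.8286) was 0.07 without TG_2. Psmc1 was also lowest in TG_2, at 10.31 against 10.80 or more elsewhere, with a difference of -0.17, or -0.0002 without that array. Psmc2 was the steadiest ATPase in the probe set used, which carries the suffix _x_at, with a wild-type SD of 0.09 and a difference of -0.01. Its other measured probe set was 11.47, 11.45, 11.38 and 11.39 in TG_1 to TG_4 and 11.35, 11.34, 11.22 and 11.22 in WT_1 to WT_4. There the groups did not overlap, with a difference of 0.14, or 0.13 without TG_2, which was not tested.

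The base of the regulatory particle also holds Psmd1 and Psmd2, its scaffolds, and Psmd4, a ubiquitin receptor. Psmd4 was 11.80, 12.41, 11.53 and 12.06 in TG_1 to TG_4 and 11.99, 11.59, 11.88 and 11.73 in WT_1 to WT_4. Arrays labelled transgenic held both the highest value, TG_2, and the lowest, TG_3, and the difference of 0.15 (exact permutation p = 0.514) was 0.0007 without TG_2. Psmd1 went the other way, at 11.40, 10.43, 11.07 and 11.48 against 11.65, 11.21, 11.24 and 11.08. Its difference of -0.20 (95% confidence interval -0.79 to 0.40) turned to 0.02 without TG_2 and to 0.15 without TG_2 and TG_3. Psmd2 differed by 0.12, or by 0.048 without TG_2, and 0 of the 3 passed (limma adjusted p between 0.816 and 0.823).

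The lid removes ubiquitin from the substrate, with Psmd14 as its deubiquitinase. The 8 lid genes that match the naming pattern were higher in 4 and lower in 4. Psmd14 was 10.72, 10.11, 10.58 and 10.87 in TG_1 to TG_4 and 11.04, 10.58, 10.76 and 10.53 in WT_1 to WT_4. TG_2 was its lowest array, the others overlapped, and the difference of -0.15 (95% confidence interval -0.64 to 0.33; exact permutation p = 0.543) was 0.0002 without TG_2. Psmd7, which pairs with Psmd14, was 10.86, 11.08, 10.73 and 10.69 against 10.94, 10.71, 10.32 and 10.46. It had the smallest p of the lid, with a group difference of 0.24 (SE 0.190; exact permutation p = 0.229; 0.16 without TG_2). Psmd8 had the largest difference, 0.28, but lay at 12.20 in TG_2 and at 10.68 in TG_3, and its difference was -0.02 without TG_2 and 0.48 without TG_3. Psmd3 and Psmd13 were highest in TG_2, Psmd6 and Psmd12 were lowest there, and Psmd11 was highest in TG_4. Psmd11 counted as lower by -0.0047 only, whereas its other measured probe sets gave differences of 0.10, 0.19 and 0.22. The limma adjusted p of the 8 genes lay between 0.813 and 0.995.

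The chaperones that assemble the regulatory particle, Psmd5, Psmd9 and Psmd10, all had higher means. Psmd10, also known as gankyrin, had the smallest unadjusted p of the 34 genes (0.125; limma adjusted p = 0.813). It was 8.03, 7.88, 7.97 and 7.99 in TG_1 to TG_4 and 7.73, 7.98, 7.46 and 7.58 in WT_1 to WT_4. The arrays labelled transgenic were tightly grouped (7.97 ± 0.06, SD, n = 4) and the wild-type mice were not (7.69 ± 0.22), and WT_2 was the 1 wild-type array inside the transgenic range. The difference of 0.28 (95% confidence interval -0.10 to 0.65; exact permutation p = 0.0857) did not rest on TG_2, without which it was 0.31 (95% confidence interval -0.02 to 0.64). Psmd5 and Psmd9 differed by 0.20 and 0.25, and by 0.04 and -0.06 without TG_2. Psmc3ip, which is no proteasome subunit, was 8.66, 8.52, 8.95 and 8.68 against 8.55, 8.75, 8.35 and 8.45, a difference of 0.18.

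**Figure D4:**
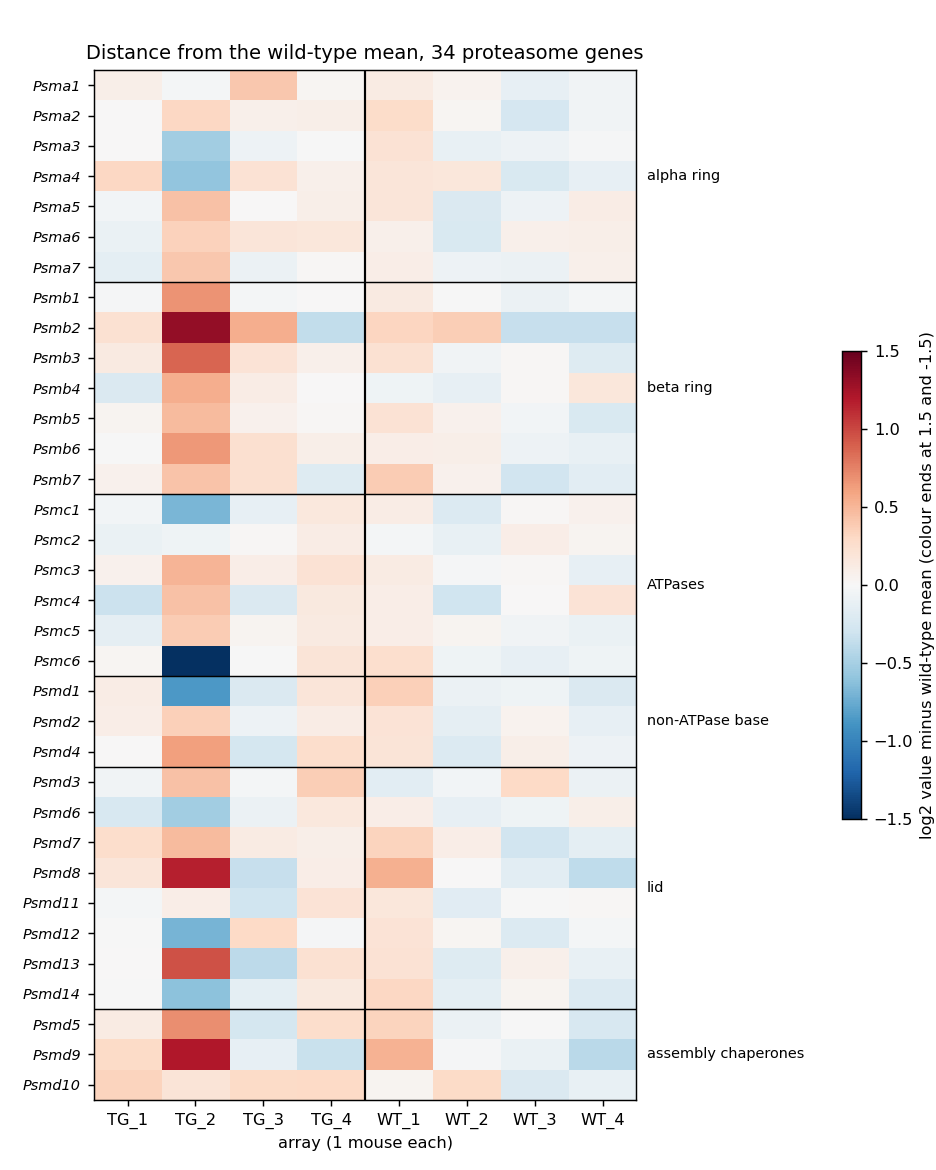
Log2 distance of each of 34 proteasome genes from its wild-type mean in each of 8 arrays, ordered by role; red is above and blue below the wild-type mean, and colours end at 1.5 and -1.5. TG_2 is the array with the strongest colours in both directions, from -2.53 for Psmc6 to 1.32 for Psmb2, and all 7 beta ring genes are red there.

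The members lay on both sides of the other arrays in TG_2, as the genes of that array did in general. TG_2 was the highest of the 8 arrays for 22 of the 34 genes, where it was for 46.8% of all genes, and the lowest for 8, where it was for 31.0%. It was at one end for 30 in all, where it was at one end for 77.8% of all genes and for 75.0% of those with a mean above 10. Departures of over 2-fold were fewer. They were seen in 4 of the 34 genes, with Psmb2, Psmd8 and Psmd9 above the other arrays and Psmc6 below, where 16.8% of all genes lay above and 20.4% below. Among genes with a mean above 10 they were seen in 2 of 29 members and in 26.4% of all. In the other 7 arrays 0 of the 34 genes lay over 2-fold from the rest, where 11.5% of all genes did in at least 1 of them, and 7.99% of the genes with a mean above 10. The comparison with genes above 10 was chosen after seeing the data.

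Of the 34 genes 13 had more than 1 measured probe set, 31 in all. TG_2 lay on the same side of the other arrays in every probe set of 12 of these genes. For Psmc6 the 3 probe sets put TG_2 at -4.35 to -2.53 from the others on the log2 scale, and for Psma3 the 2 probe sets put it at -1.88 and -0.50. In 1 of these probe sets of each gene TG_2 itself read 4.30 for Psmc6 and 4.46 for Psma3, below the filter level of 5, so those distances show the side and not the size. In the Psmc6 probe set at -4.35 TG_2 read 5.12, just above that level, so this size is uncertain too. For Psmb3 both lay above, by 0.80 and 1.15, and for Psmd13 2 probe sets lay above, by 0.86 and 0.95. The third of Psmd13 lay above as well, but 4 of the other arrays read below 5 in it. Psmc2 was the exception, at -0.08 and 0.10. The group difference had the same sign in every probe set of 11 of the 13 genes, and of 8 without TG_2. Probe sets of a gene share the RNA of the array, so they check the reading of TG_2 and add no mice.

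**Figure D5:**
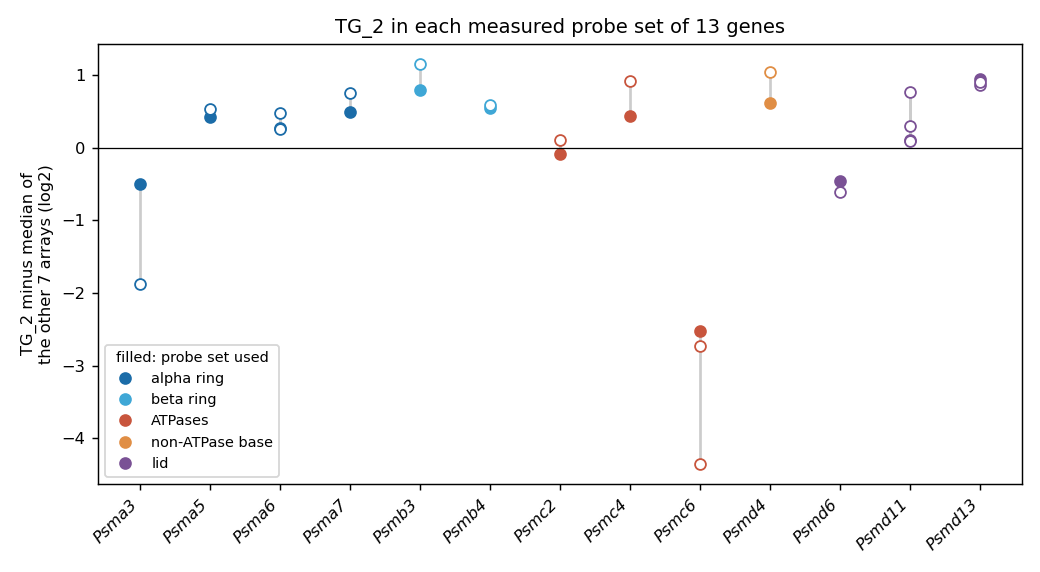
Log2 distance between TG_2 and the median of all other arrays in each of the 31 measured probe sets of 13 proteasome genes, coloured by role; filled points are the probe sets used for the gene. Only Psmc2 has points on both sides of 0, and the 3 probe sets of Psmc6 lie between -2.53 and -4.35. Where a reading is below 5, the distance shows the side and not the size. At the point of -4.35 TG_2 reads 5.12, just above that level, so its size is uncertain too.

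The interferon-inducible subunits replace the catalytic beta subunits in immune cells and under interferon. In wild-type mice Psmb8 and Psmb9 spread more widely than the subunits they replace and Psmb10 did not, a difference in spread that was not tested. Psmb9, which replaces Psmb6, was 7.63, 8.997, 6.61 and 6.40 in TG_1 to TG_4 and 7.07, 7.09, 5.86 and 5.29 in WT_1 to WT_4. Mice of both groups lay high and low, and its wild-type SD of 0.90 stood against 0.11 for Psmb6. Psmb8, which replaces Psmb5, was 8.87, 9.85, 7.77 and 7.80 against 8.34, 8.28, 7.75 and 7.52, with a wild-type SD of 0.40 against 0.19 for Psmb5. Psmb10, which replaces Psmb7, was 9.98, 11.02, 9.46 and 9.92 against 9.73, 9.81, 9.75 and 9.57, and its wild-type SD of 0.10 was below the 0.29 of Psmb7. All 3 were also dimmer than the subunits they replace. Wild-type means were 6.33 for Psmb9, 7.97 for Psmb8 and 9.71 for Psmb10, against 11.29, 11.54 and 11.97 for Psmb6, Psmb5 and Psmb7. The part of brightness in the spread was not tested. The differences between groups were 0.60, 1.08 and 0.38 for Psmb8, Psmb9 and Psmb10 with limma adjusted p of 0.813 each, and 0.18, 0.55 and 0.07 without TG_2. For all 3 genes TG_2 lay over 2-fold above the median of the remaining 7 arrays, though for Psmb8 less than 2-fold above TG_1.

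Markers of macrophages, which carry these subunits, moved in part with them. The summed linear level of 6 macrophage markers was 4238, 7317, 1874 and 3395 in TG_1 to TG_4 and 4704, 3811, 5333 and 3679 in WT_1 to WT_4. It was highest in TG_2, like Psmb8, Psmb9 and Psmb10, and lowest in TG_3. The markers differed among themselves. Cd14 was highest in WT_3, at 11.25, whereas Cd68 was 8.51, 7.85, 6.73 and 6.24 in WT_1 to WT_4, with the same mice high and low as for Psmb9. Cd163 was lowest of the 8 arrays in TG_2, at 5.05. Of 5 lymphocyte markers on the array only Cd4 was measured, and Cd3e, Cd8a, Cd79a and Ms4a1 lay below the level of the filter. The summed endothelial and smooth muscle markers were also highest in TG_2, at 6405 and 17430, but Kdr and Myh11 of these lists were lowest there, at 8.52 and 8.18. The part of these cells in the values was not tested.

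Genes that serve the proteasome did not pass either. Of the activators and the inhibitor 5 of 6 listed genes were measured, 3 with a higher and 2 with a lower mean, and 0 passed. Psme1, of the activator that interferon induces, was 11.89, 12.50, 12.16 and 11.25 in TG_1 to TG_4 and 11.59, 11.83, 11.36 and 11.53 in WT_1 to WT_4, a difference of 0.37 (0.19 without TG_2 and -0.01 without TG_2 and TG_3). Its lowest and its highest values were both in arrays labelled transgenic. Psme3, of the nuclear activator, differed by 0.20, or by 0.11 without TG_2. Of the list of core assembly factors, in which Akirin2 was counted, 6 of 7 were measured, 5 higher and 1 lower, or 4 and 2 without TG_2. Akirin2, which is not itself an assembly factor, differed by 0.06, or by -0.07 without TG_2. Psmg1, which helps to build the alpha ring, had the smallest p of this list. It was 8.64, 9.21, 9.21 and 8.51 against 8.39, 8.78, 8.33 and 8.41, with TG_2 and TG_3 above all wild-type arrays. The means of Psmg1 lay 0.41 apart (SE 0.221, exact permutation p = 0.143), or 0.31 without TG_2 and 0.10 without TG_2 and TG_3. Psmg3 differed by 0.25, or by 0.05 without TG_2.

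Of the other subunits and bound deubiquitinases 4 of 5 were measured, 4 lower and 0 higher, or 2 lower and 2 higher without TG_2, and 0 passed. Uchl5, a deubiquitinase of the regulatory particle, was 6.59 in TG_2 and between 9.09 and 9.34 in the other 7 arrays, and its difference of -0.64 was 0.01 without TG_2. Usp14, the other deubiquitinase that binds the particle, was also lowest in TG_2, at 8.90, and differed by -0.22, or by -0.04 without that array.

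The genes of transcriptional control overlapped between groups. Nfe2l1, which encodes NRF1, was 10.59, 10.29, 10.12 and 10.62 in TG_1 to TG_4 and 10.50, 10.43, 10.51 and 10.33 in WT_1 to WT_4, a difference of -0.04 (95% confidence interval -0.43 to 0.35). Of the 6 measured genes of this list 1 was higher and 5 were lower, and 0 passed. Without TG_3 the count was 3 higher, and without TG_2 and TG_3 it turned to 5 higher. Ngly1, the enzyme that removes sugar chains from NRF1 on its way to activation, was 8.34 in TG_2 and at least 10.03 elsewhere, with a difference of -0.50, or -0.02 without TG_2. Keap1, which holds back the related factor NRF2, differed by 0.29, or by 0.09 without TG_2.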

How the data were processed

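Total RNA of 8 banded ventricles was hybridised to Affymetrix mouse genome arrays, 1 mouse each. The values are on a log2 scale as the authors deposited them, and were made with GCRMA per the submitters' processing notes, which name no version. GCRMA normalizes by quantiles and pulls dim probe sets to a common low level. Precision is limited by the number of arrays.

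Of 45101 probe sets, 34945 that are no controls had 1 symbol, 932 had several and 9211 had no row in the platform annotation. All 37 member symbols matched RefSeq by Entrez identifier. Probe sets had to exceed 5 in at least 4 of 8 arrays, and the one with the highest mean was kept per gene. A linear model without a block (lmFit, then eBayes, of limma 3.58.1 under R 4.3.3) was applied to 9607 genes, with Benjamini-Hochberg adjustment at 0.05. The steps were run on simulated data in which the noise of a gene had the same spread in every array. Those data held no array that stood apart like TG_2, so they do not show how the model behaves with one. Single genes also had an exact two-sided permutation test, whose smallest possible p is 0.0286. Members and lists were chosen with earlier results of these data known. Genes were named by a rule that took Hey2, the catalytic subunits, Psmd4, Psmd14 and the members of each role with the smallest p and the largest difference. It also took up to 2 genes of each related list by the same p. Their values are given in every array, with exceptions. Psmd8, Psme3, Psmg3, Keap1, Usp14, Uchl5, Ngly1, Uba6 and Nploc4 are given by single arrays, ranges or differences only. Other values were added to show single arrays, and Nfe2l1 was chosen after its values were seen. Alternatives changed the filter, scaling, probe set rule, model and threshold and left out arrays.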

Additional observations from a re-analysis of the deposited data

Results flagged for a closer look

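Of 29 named genes, each checked in both groups of 4, an array stood far from the other 3 of its group in 7 cases. About 1 in 20 such groups would be marked by chance if groups were independent and genes were not chosen by their values. These groups share arrays, and many of the genes were named for their p or difference, so that rate does not apply here. TG_2 stood apart for Psmb5 at 12.02 (others 11.56 to 11.61), Psmb3 at 12.34 (11.54 to 11.67) and Psmc6 at 9.12 (11.64 to 11.84). It also did for Uchl5 at 6.59 (9.10 to 9.34) and for Uba6, an enzyme that activates ubiquitin, at 3.83 (7.01 to 7.37). That Uba6 value is below the level of 5 used by the filter. Among wild-type mice WT_2 stood apart for Psma6 at 11.94 (12.24 to 12.26) and WT_1 for Psmc6 at 11.90 (11.52 to 11.58).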

How the results depend on the processing

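The counts of core and regulatory genes that passed were 0 under each of the 19 alternatives, a threshold of 0.1 among them. Over all genes 1 passed with array weights, and 0 in the other alternatives. The lowest adjusted p of a named gene was 0.215. Core genes with a higher mean numbered 8 without transgenic replicates 2 and 3. Leaving out 1 array each gave 10 to 13 core and 11 to 14 regulatory genes, with medians of 0.05 to 0.19 and 0.01 to 0.16. With quantile normalization the numbers were 11 and 11 and the medians 0.09 and 0.06, and with each array centred on its median 12 and 11, and 0.10 and 0.09. Signs turned with array weights for Psma6 (-0.074), Psmc6 (0.063), Psmd1 (0.17) and Psmd14 (0.058). Without transgenic replicates 2 and 3 they turned for Ngly1 (0.10), Psmb2 (-0.066), Psmb7 (-0.061), Psmc6 (0.11), Psmd1 (0.15), Psmd14 (0.071), Psme1 (-0.0078) and Vcp (0.044). Leaving out single arrays gave ranges across 0 for Hey2 (-0.24 to 0.12), Nploc4 (-0.0096 to 0.46), Psmc6 (-0.83 to 0.073), Psmd1 (-0.32 to 0.024), Psmd14 (-0.25 to 0.0002), Psmd8 (-0.023 to 0.48) and Uchl5 (-0.91 to 0.0099). The cause was not tested. With a replicate block 0 genes passed. Same-numbered arrays correlated at -0.33 to 0.30 in their deviations, and 2 of 4 correlated best with their own number, so the numbers were not taken as pairs.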

Other observations

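Genes upstream of the proteasome were measured in part. Uba6, 1 of 6 listed genes for ubiquitin and its activation that were measured, differed by -0.94 between groups and by -0.11 without TG_2. Of the shuttle and segregase list, which delivers ubiquitin-bound proteins, 7 of 8 genes were measured, 2 with a higher and 5 with a lower mean, and 0 passed. Without TG_2 it was 4 higher and 3 lower, and without TG_2 and TG_3 5 were higher. Vcp, the segregase that pulls proteins out of complexes, was 13.05, 12.68, 12.83 and 13.32 in TG_1 to TG_4 and 13.22, 12.95, 13.33 and 13.07 in WT_1 to WT_4, a difference of -0.17, or -0.074 without TG_2. Its cofactor Nploc4 was 9.76 in TG_2 and between 8.35 and 8.99 in the other 7 arrays, with a difference of 0.28, or -0.01 without TG_2.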
